A study of Homo sapiens with 18 samples.

Results

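PC9, an established human lung adenocarcinoma cell line with an activating EGFR mutation, was compared in 2 labelled states without S100A9 inhibition: the Tr-BrM controls, 3 libraries, against the BrM controls, 3 libraries. These 6 libraries are all that the PC9 table holds for the labels Tr-BrM control and BrM control, out of 18 libraries in the series, and changes are given throughout as Tr-BrM minus BrM. Both groups carry the treatment label control and differ in the condition label alone, with no further genotype or age given. The sources used here do not give what Tr and BrM stand for, the number of clones or passages behind each state, or the vector or agent that the controls received. The other libraries are 3 of PC9 Tr-BrM under S100A9-inh, which entered the fit to estimate the spread, and 9 of H1650, another EGFR-mutant lung cancer line. Whether the 3 libraries of a group are separate cultures is not stated in the labels. The p-values therefore reflect the spread among these libraries alone, which could be technical.

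Lung adenocarcinoma with a mutant EGFR kinase grows on signals from that receptor and often spreads to the brain. S100A9 pairs with S100A8 to form calprotectin, a calcium-binding protein that cells release and that signals through receptors such as TLR4 and RAGE, and ALDH1A1 oxidises retinal to retinoic acid, the ligand of nuclear retinoid receptors. Epithelial tumour cells that take on mesenchymal features exchange E-cadherin for N-cadherin, lay down fibronectin and change their integrins, and the reverse exchange restores sheet-like epithelial traits. Poly-A RNA was sequenced and reads were counted per gene. Levels are given as CPM, the counts scaled by edgeR to a common TMM-adjusted library total, which are not divided by gene length and so are compared between libraries and not between genes. A gene "rose" or "fell" if its quasi-likelihood test in edgeR, adjusted across the 16169 tested genes, gave a p under 0.05, and changes are log2 fold changes ± SE with 3 libraries against 3. The SE was taken back from the test, as the absolute log2 change divided by the square root of its F statistic. Where a group had few counts this SE can lie below the counting error, so it does not measure the precision there.

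The epithelial identity of the line was present in all 6 libraries. The simple keratin KRT8 was at 13730.0 ± 113 CPM in BrM and 11016 ± 54.7 CPM in Tr-BrM, KRT18 at 4082 ± 54.2 CPM in BrM and 3544 ± 93.1 CPM in Tr-BrM and the epithelial adhesion molecule EPCAM at 314 ± 12.3 CPM in BrM and 330.1 ± 9.43 CPM in Tr-BrM (SD, n = 3 each). NKX2-1, the lineage factor of lung adenocarcinoma, had 3 and 8 counts over the groups, so this marker was absent in practice. Several defining markers of brain and stromal cells were at or near 0: the astrocyte gene GFAP had 4 and 9 counts, the leukocyte gene PTPRC 9 and 24 counts, the microglial gene AIF1 1 and 0 counts, the neuronal gene RBFOX3 4 and 5 counts, the oligodendrocyte gene MOG 0 and 1 counts, the T cell gene CD3E 1 and 3 counts and the endothelial gene CLDN5 2 and 0 counts. Some single members of those marker lists were expressed, among them the glutamate transporter SLC1A3, which rose by 2.69 ± 0.0621 from 15.1 to 97.6 CPM, the endothelial adhesion gene PECAM1, which rose by 3.52 ± 0.194 from 0.733 to 8.52 CPM, and the CSF1 receptor CSF1R, which fell by 2.01 ± 0.0884 from 30.2 to 7.51 CPM. The summed level of the 12 astrocyte genes was 146 to 152 CPM in BrM and 239 to 250.1 CPM in Tr-BrM, of the 10 endothelial genes 26.6 to 29.9 CPM in BrM and 44.3 to 45.0 CPM in Tr-BrM and of the 17 microglial and myeloid genes 44.2 to 45.8 CPM in BrM and 24.1 to 25.05 CPM in Tr-BrM. That of the 14 neuron genes was 30.3 to 33.9 CPM in BrM and 43.2 to 44.7 CPM in Tr-BrM. That of the 11 oligodendrocyte genes was 191 to 198 CPM in BrM and 153 to 162 CPM in Tr-BrM, nearly all of it from CNP, which fell by 0.41 ± 0.0452 from 116 to 87.3 CPM, and MBP, which fell by 0.20 ± 0.0561 from 73.95 to 64.4 CPM. That of the 11 fibroblast and pericyte genes was 27.6 to 28.3 CPM in BrM and 14.8 to 17.7 CPM in Tr-BrM, mostly COL1A1, which fell by 0.95 ± 0.0864 from 26.0 to 13.5 CPM and is also on the list of mesenchymal genes. Of the fibroblast and pericyte genes, 1 of 3 tested rose, 2 fell and 0 did not pass (median -0.95). Over all tested genes 29.6% rose and 30.3% fell. The riser was RGS5 (1.41 ± 0.292), and the other faller, PDGFRB, lost its call without BrM library 1 or 3 or Tr-BrM library 1 or 3 (adjusted p = 0.0549, 0.104, 0.0681 and 0.0734). The part of such cells in any result was not tested, and in bulk RNA fewer cells of a type and less RNA per cell cannot be told apart. Total counts ran from 19417186 to 21748732 in the 6 libraries.

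The 2 states differed in most expressed genes, many of them by small amounts. Of 16169 tested genes, 4784 rose and 4900 fell, together 59.9% of the genes tested (29.6% higher and 30.3% lower). Of the called genes, 49.0% changed by less than 0.5 on the log2 scale, while 956 rose by 1 or more (5.91% of tested genes) and 1097 fell by 1 or more (6.78%). The libraries of the 2 groups did not overlap in 65.7% of tested genes. Replicate 1 of S100A9-inh stood apart from its group: the chi-square per degree of freedom of its counts was 5.70 and 6.39 against the other 2 libraries, where pairs of the 6 control libraries within a group had 1.65 to 2.998. Without it 5100 genes rose and 5139 fell, and with only the 6 control libraries in the fit 4969 rose and 5032 fell. The median log2 change over all tested genes was 0.0014; the counts and medians of lists are to be read against these shares, and no list was tested as a list. Of 683 tested processed pseudogenes 140 rose and 51 fell, and many of these share sequence with their parent genes, so that reads can be split between copies.

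The largest rises included keratins, transporters and secreted proteins. CES1, a carboxylesterase that cleaves ester drugs and lipids (ENSG00000198848, chromosome 16, 55802851 to 55833337, reverse strand), was at 0.147, 0.3401 and 0.232 CPM in BrM and 1023, 993 and 999.6 CPM in Tr-BrM. It had 15 counts over the BrM libraries and rose by 11.996 ± 0.0856, an SE below the counting error of so few counts. SLC6A14, a sodium-driven importer of neutral and cationic amino acids (ENSG00000268104, chromosome X, 116436622 to 116461458, forward strand), had 3 counts over the BrM libraries and was at 97.9, 97.3 and 98.9 CPM in the Tr-BrM controls, 2043-fold higher (counting interval 699 to 9909). H19, an imprinted long non-coding RNA (ENSG00000130600, chromosome 11, 1995176 to 2001470, reverse strand), was at 0.834, 0.729 and 0.743 CPM in BrM and 332, 323 and 325 CPM in Tr-BrM, a rise of 8.72 ± 0.0809. These 3 genes were picked from called genes without overlap, so their separation follows from the rule. The guidance receptor ROBO1 rose from 0.273 to 18.1 CPM by 6.03 ± 0.186, the glutathione-cleaving enzyme GGT5 from 0.2103 to 13.7 CPM by 5.997 ± 0.263, and PTCHD1, a patched-domain membrane protein, from 0.242 to 14.1 CPM by 5.84 ± 0.2102. The selenium-binding protein SELENBP1, with 2 counts in BrM, was 326-fold higher (counting interval 89.8 to 2695) in Tr-BrM. The matrix proteoglycan FMOD, with no count in BrM, was at 4.95, 6.42 and 5.98 CPM in the Tr-BrM controls, at least 121-fold higher if 3 counts are taken as the floor of the empty group, and GGT6, with 1 count in BrM, was 651-fold higher (counting interval 116 to 25764) in Tr-BrM.

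The largest falls included adhesion, cytoskeletal and transcriptional genes. N-cadherin, CDH2 (ENSG00000170558, chromosome 18, 27950966 to 28177446, reverse strand), was at 39.8, 42.03 and 38.6 CPM in the BrM controls, and had no count in any Tr-BrM library, at least 793-fold lower against the same floor. EPB41L2, a protein that ties the spectrin skeleton to the membrane, went from 152 to 0.353 CPM (group means) and fell by 8.72 ± 0.108. The actin bundler LCP1 was at 99.4, 105 and 106 CPM in BrM and 0.937, 0.584 and 0.869 CPM in Tr-BrM, a separation that also follows from the rule. EYA4, a transcriptional co-activator and phosphatase, fell by 6.54 ± 0.198 from 21.01 to 0.219 CPM, and DPYSL3, a cytoskeletal regulator of growth cones, fell by 5.75 ± 0.161 from 33.1 to 0.602 CPM. The stress kinase NUAK1 changed by -3.98 ± 0.0994, the formin FHOD3 by -3.81 ± 0.106, the nuclear envelope linker SYNE1 by -3.41 ± 0.133 and the arginine deiminase PADI4 by -5.53 ± 0.206. The chromodomain gene CDYL2 fell by 8.05 ± 0.193 from 32.8 to 0.118 CPM and the T cell receptor constant segment TRBC2, counted here in a carcinoma line, by 4.72 ± 0.2097 from 11.7 to 0.433 CPM. The zinc finger gene TSHZ3, at 5.84, 4.62 and 5.81 CPM in the BrM controls, had no count in Tr-BrM. PTGS2, the inducible cyclooxygenase, was at 12.8, 13.4 and 13.8 CPM in BrM and 0.833, 0.7297 and 0.818 CPM in Tr-BrM, a change of -4.06 ± 0.162.

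**Figure D1:**
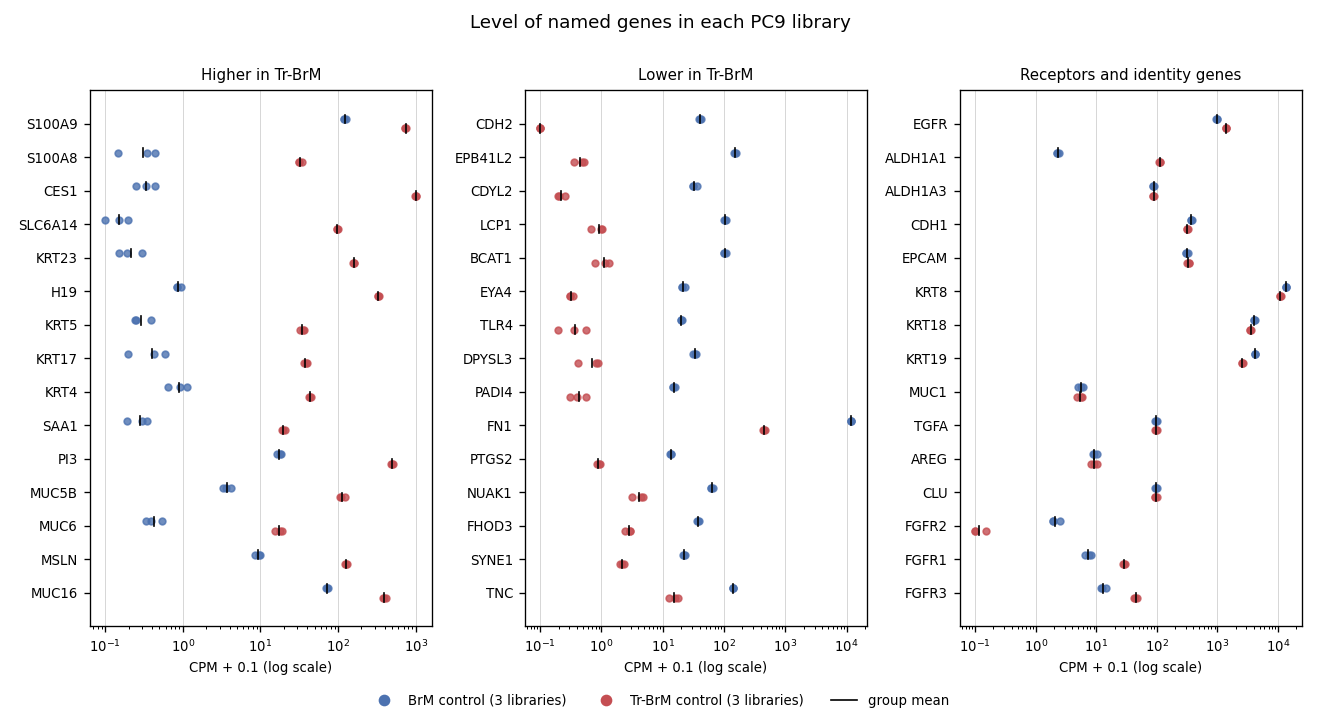
Each point is 1 PC9 library and each black tick a group mean, for genes named in the text; the x axis is the level as CPM plus 0.1 on a log scale. The groups stand apart in the first 2 panels, where most genes were picked by a rule that asks for libraries without overlap. EPCAM, ALDH1A3, MUC1, TGFA, AREG and CLU in the right panel overlap between BrM and Tr-BrM.

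Calprotectin rose while most of the tested receptors and adaptors on its list fell. S100A9 (ENSG00000163220, chromosome 1, 153357854 to 153361027, forward strand) stood at 119, 127 and 119.7 CPM in BrM and 739, 738 and 759 CPM in Tr-BrM, and S100A8 was at 0.245, 0.3401 and 0.0464 CPM in BrM and 31.3, 33.9 and 31.4 CPM in Tr-BrM. Both rose, by 2.61 ± 0.0424 and 7.23 ± 0.189, and the libraries of S100A9 did not overlap. S100A8 is among the largest rises, which were picked without overlap. Of the S100 genes, 4 of 14 tested rose, 8 fell and 2 did not pass (median -0.20). The epithelial S100P rose by 0.97 ± 0.0585 from 99.1 to 195 CPM, whereas S100A2 fell by 1.25 ± 0.128 and S100A10, the partner of annexin A2, by 0.42 ± 0.0401 from 393 to 293 CPM. Of the receptors and adaptors through which S100A8 and S100A9 are known to signal, 2 of 13 tested rose, 8 fell and 3 did not pass (median -0.47). TLR4 was at 19.7, 19.6 and 20.9 CPM in BrM and 0.2604, 0.0973 and 0.4602 CPM in Tr-BrM, and is among the largest falls, which were picked without overlap. The receptor AGER (RAGE) fell by 1.44 ± 0.183 from 5.79 to 2.13 CPM, the adhesion receptor MCAM by 0.65 ± 0.0466 and the kinase IRAK1 by 0.59 ± 0.0344. CD14, the co-receptor of TLR4, rose by 1.89 ± 0.256 at a low level, 0.979 to 3.64 CPM, and the adaptor MYD88 rose by 0.55 ± 0.0628 from 40.1 to 58.5 CPM. Basigin, BSG, an abundant receptor at 666 to 656 CPM, did not pass (-0.02 ± 0.0372, adjusted p = 0.622).

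Retinoid genes moved unevenly. ALDH1A1 (ENSG00000165092, chromosome 9, 72900662 to 73080442, reverse strand) was at 2.11, 2.28 and 2.18 CPM in BrM and 107, 113 and 113 CPM in Tr-BrM, so its libraries did not overlap, while ALDH1A3, the other abundant retinal dehydrogenase, was at 87.4, 90.3 and 87.7 CPM in BrM and 90.2, 86.9 and 87.1 CPM in Tr-BrM and its libraries did overlap. ALDH1A2 rose by 2.39 ± 0.412 but stayed low, 0.318 to 1.698 CPM. Of the retinoid enzymes and carriers, 6 of 15 tested rose, 4 fell and 5 did not pass (median 0.12). CRABP2, which delivers retinoic acid to the nucleus, rose by 0.59 ± 0.0409 from 158 to 238 CPM, and the retinol receptor STRA6 did not pass, at 85.2 to 85.2 CPM (adjusted p = 0.988). LRAT, which stores retinol as esters, fell by 1.14 ± 0.176, and the retinal reductase RDH11 by 0.76 ± 0.0522. Of the nuclear receptors and retinoid targets, 1 of 10 tested rose, 6 fell and 3 did not pass (median -0.40). The orphan receptors NR2F1 and NR2F2 changed by -3.70 ± 0.242 and -0.90 ± 0.0492, the receptors RARG and RXRA by -0.67 ± 0.0487 and -0.44 ± 0.0405, and the transglutaminase TGM2, a classical retinoic acid target, by -0.82 ± 0.0364 from 1498 to 846 CPM.

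Keratins changed by class. Every tested member of the basal and stratified keratins rose, 9 of 9, with a median of 2.47. KRT5, the basal cell keratin, was at 0.147, 0.292 and 0.139 CPM in BrM and 34.8, 32.01 and 36.6 CPM in Tr-BrM, and KRT17, a keratin of activated and basal epithelium, at 0.0981, 0.486 and 0.325 CPM in BrM and 39.4, 35.9 and 38.1 CPM in Tr-BrM. KRT4, a keratin of non-cornified squamous epithelium, rose from 0.796 to 43.2 CPM by 5.74 ± 0.139, and its partner KRT13 from 0.255 to 6.74 CPM by 4.68 ± 0.273. KRT5, KRT17 and KRT4 are among the largest rises, which were picked without overlap, and the libraries of KRT13 did not overlap either. KRT6A and KRT6B, whose reads can be exchanged with those of near copies, rose by 2.13 ± 0.0752 and 2.47 ± 0.0536. Of the list of mostly simple epithelial keratins, which also holds KRT80 and KRT81, 2 of 8 tested rose, 5 fell and 1 did not pass (median -0.26). KRT7 fell by 0.62 ± 0.0353, KRT19 by 0.68 ± 0.0333, KRT18 by 0.20 ± 0.0327 and KRT80 by 1.06 ± 0.0382, and KRT8 by 0.32 ± 0.0309. KRT23 went from 7 counts over the BrM libraries to 160.0 CPM in Tr-BrM, and KRT81, at a low level, rose by 1.11 ± 0.284 from 1.01 to 2.18 CPM. The basal master factor TP63 rose by 1.29 ± 0.289 at a low level, 0.722 to 1.77 CPM, whereas the cornified envelope gene SPRR3 fell by 1.79 ± 0.2896 and involucrin, IVL, rose by 1.39 ± 0.184.

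Most tested mucins rose as well. MUC5B, a gel-forming airway mucin, was at 3.53, 4.03 and 3.16 CPM in BrM and 123, 106 and 108 CPM in Tr-BrM, and MSLN, mesothelin, at 9.76, 8.46 and 9.43 CPM in BrM and 132, 124 and 128 CPM in Tr-BrM. MUC16, the ligand of mesothelin, was at 71.6, 70.1 and 74.8 CPM in BrM and 394, 378 and 414 CPM in Tr-BrM. All 3 were separate between groups in every library. MUC6 rose by 5.74 ± 0.206 from 0.322 to 17.4 CPM, while the membrane mucin MUC4 fell by 1.41 ± 0.0729 from 72.3 to 27.2 CPM and MUC1 did not pass (-0.06 ± 0.139, adjusted p = 0.725). Over the list of mesothelin and mucins, 6 of 8 tested rose, 1 fell and 1 did not pass (median 2.25). Of the alveolar and airway lineage genes, 6 of 12 tested rose, 3 fell and 3 did not pass (median 0.27). SLC34A2, a phosphate carrier of alveolar type II cells, had no count in BrM and 728 in Tr-BrM, at least 256-fold higher against the same floor, CEACAM6 rose by 1.53 ± 0.0569 from 30.4 to 87.7 CPM, FOXA1 fell by 0.36 ± 0.0565, and the endoderm factor FOXA2, with 3 counts in Tr-BrM, was 30.7-fold lower (counting interval 10.2 to 151) there.

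Acute phase and complement genes formed the third group that rose. Of this list, 12 of 15 tested rose, 0 fell and 3 did not pass (median 1.67). PI3 (elafin), an inhibitor of neutrophil elastase, was at 18.4, 16.3 and 17.6 CPM in BrM and 506, 482 and 498 CPM in Tr-BrM, and lipocalin 2, LCN2, at 53.6, 54.3 and 52.1 CPM in BrM and 229, 224 and 236 CPM in Tr-BrM. Both were far apart between groups. The complement proteases C1S and C1R rose by 2.40 ± 0.109 from 4.18 to 22.2 CPM and by 0.97 ± 0.1296 from 6.396 to 12.5 CPM, and CD55, which breaks up complement convertases on the cell surface, by 1.96 ± 0.0589 from 19.5 to 75.8 CPM. The other shields CD46 and CD59 were at 0.03 ± 0.0427 (adjusted p = 0.504) and 0.11 ± 0.0411 (adjusted p = 0.0246). CLU, clusterin, did not pass, at 96.1 to 96.3 CPM (adjusted p = 0.9603). The call of CD59 was lost without BrM library 1 (adjusted p = 0.0985) and without Tr-BrM library 2 (adjusted p = 0.0719). SAA1 and SAA2, near-identical acute phase genes, went from 11 and 4 counts over the BrM libraries to 19.7 CPM and 1.33 CPM in Tr-BrM, and their reads can be exchanged.

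Growth factor receptors changed member by member. EGFR (ENSG00000146648, chromosome 7, 55019021 to 55211628, forward strand) measured 979.5, 962 and 984 CPM in BrM and 1374, 1394 and 1413 CPM in Tr-BrM and rose by 0.52 ± 0.03197. Its partners ERBB2 and ERBB3 fell by 0.30 ± 0.0454 and 0.56 ± 0.0458, the adaptor SHC1, which links the receptor to RAS, fell by 1.70 ± 0.0464 from 198 to 60.8 CPM, and ERRFI1, a feedback inhibitor of EGFR, rose by 0.73 ± 0.0439. Of the EGFR family and its brakes, 2 of 12 tested rose, 7 fell and 3 did not pass (median -0.27). Among ligands NRG1, which binds ERBB3, fell by 4.25 ± 0.316 from 3.96 to 0.204 CPM and EREG by 1.76 ± 0.2097, EGF rose by 1.58 ± 0.193 from 1.68 to 5.04 CPM, and the ligands TGFA and AREG did not pass, at 97.1 to 97.03 CPM (adjusted p = 0.997) and 9.22 to 9.11 CPM (adjusted p = 0.908). The FGF receptors moved in opposite directions: FGFR2 was at 1.81, 2.38 and 1.81 CPM in the BrM controls and had 1 count over all Tr-BrM libraries, 119-fold lower (counting interval 20.9 to 4722) there, while FGFR1 was at 7.94, 7.39 and 6.32 CPM in BrM and 30.05, 28.6 and 27.4 CPM in Tr-BrM and FGFR3 at 12.3, 14.4 and 12.03 CPM in BrM and 47.1, 42.4 and 43.7 CPM in Tr-BrM. FGFR4 rose by 0.55 ± 0.0896. AXL fell by 1.83 ± 0.0856 from 29.8 to 8.39 CPM, its ligand GAS6 by 0.98 ± 0.0912 and the insulin-like growth factor receptor IGF1R by 1.11 ± 0.0497 from 119 to 55.1 CPM, while MET rose by 0.24 ± 0.0436 and EPHA2 by 0.59 ± 0.0425. Of the receptor kinases known to bypass EGFR, 6 of 17 tested rose, 8 fell and 3 did not pass (median -0.33).

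Readouts of the MAPK cascade, through which these receptors signal, were divided. Of the output and feedback genes, 7 of 18 tested rose, 6 fell and 5 did not pass (median -0.02). The phosphatase DUSP5 rose by 1.04 ± 0.0559, SPRY4 by 0.78 ± 0.0571, EGR1 by 1.32 ± 0.101 from 7.66 to 19.1 CPM, cyclin D1, CCND1, by 0.74 ± 0.03296 from 477 to 797 CPM and MYC by 0.98 ± 0.0408 from 121 to 239 CPM. PHLDA1 fell by 1.29 ± 0.0885, and DUSP6, the phosphatase most closely tied to ERK activity, did not pass (-0.16 ± 0.0855, adjusted p = 0.102). Of AP-1 and early response factors, which ERK induces, 7 of 15 tested rose, 4 fell and 4 did not pass (median 0.09). The AP-1 letters TGANTCA were in none of 14 promoters of those factors, and in 1 of 10 promoters of the output and feedback genes, that of SPRED3, against 6.60% of all promoters.

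Most tested mesenchymal genes fell. Of the mesenchymal genes, 4 of 23 tested rose, 15 fell and 4 did not pass (median -0.85). FN1, fibronectin (ENSG00000115414, chromosome 2, 215360440 to 215436172, reverse strand), was at 12023, 11929 and 12023 CPM in BrM and 452, 439.8 and 459 CPM in Tr-BrM, and fell by 4.73 ± 0.0377. FN1 is among the largest falls, which were picked without overlap. TNC, tenascin C, went from 140.1 to 15.2 CPM and LOXL2, a collagen cross-linking oxidase, from 101 to 26.8 CPM; TNC fell by 3.20 ± 0.0682 and LOXL2 fell by 1.91 ± 0.0608. Not all members followed: the hyaluronan receptor CD44 rose by 0.64 ± 0.0294 from 1353 to 2111 CPM and NT5E (CD73), which makes adenosine, by 1.15 ± 0.0423. E-cadherin, CDH1, also fell, by 0.22 ± 0.0344 from 373 to 319.7 CPM, and vimentin, VIM, was counted at only 3.21 to 1.103 CPM. Of the epithelial genes, 9 of 36 tested rose, 22 fell and 5 did not pass (median -0.21).

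Integrins, laminins and collagens followed the same direction in part. ITGB6, the subunit that activates latent TGF-beta, was at 57.7, 52.9 and 54.2 CPM in BrM and 11.4, 11.9 and 12.2 CPM in Tr-BrM, and LAMA3, the alpha chain of laminin 332, at 109, 113 and 107 CPM in BrM and 28.3, 30.9 and 31.1 CPM in Tr-BrM. The neural adhesion molecule L1CAM was at 417, 424 and 404 CPM in BrM and 81.2, 74.97 and 73.8 CPM in Tr-BrM. For these 3 genes every Tr-BrM library was below every BrM library. The fibronectin receptor subunit ITGA5 fell by 1.69 ± 0.0663 and its partner ITGB1 by 0.64 ± 0.0358 from 644 to 415 CPM, while ITGA3 did not pass (-0.04 ± 0.03704, adjusted p = 0.373). The beta chain of laminin 332, LAMB3, rose by 0.49 ± 0.0416, and LAMA4 rose by 1.37 ± 0.0676 from 22.5 to 58.05 CPM. Over the integrin and laminin subunits, 6 of 26 tested rose, 15 fell and 5 did not pass (median -0.38). Of the collagen genes, 4 of 22 tested rose, 14 fell and 4 did not pass (median -0.61). COL7A1, the anchoring fibril collagen, fell by 1.61 ± 0.0423 from 387 to 127 CPM, the basement membrane pair COL4A1 and COL4A2 changed by -0.99 ± 0.0726 and -1.001 ± 0.0542, and a second pair that shares a promoter, COL4A3 and COL4A4, fell by 2.66 ± 0.314 and 3.02 ± 0.397. COL12A1 rose by 1.21 ± 0.0463 from 77.6 to 179 CPM. The membrane proteases MMP14 and ADAM8 fell by 1.66 ± 0.121 and 1.94 ± 0.0732, and TIMP3, a matrix-bound protease inhibitor, rose by 1.71 ± 0.0503 from 37.4 to 123 CPM.

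More genes of the TGF-beta and BMP pathways fell than rose. Of the list, 7 of 34 tested rose, 19 fell and 8 did not pass (median -0.36). TGFB1, the main ligand, was at 89.9, 83.04 and 85.9 CPM in BrM and 36.5, 34.3 and 37.9 CPM in Tr-BrM, and PMEPA1, a feedback target of the pathway, at 1202, 1180.3 and 1181 CPM in BrM and 412, 403 and 393 CPM in Tr-BrM. Both fell, by 1.25 ± 0.0574 and 1.56 ± 0.03405. The receptor TGFBR1 fell by 0.68 ± 0.0468 and TGFBR2 rose by 0.81 ± 0.0443, the target TGFBI fell by 1.40 ± 0.0392, and the storage protein LTBP2 by 1.58 ± 0.0412. The signal transducers SMAD2, SMAD4 and SMAD7 changed by -0.40 ± 0.0476, -0.74 ± 0.0732 and -0.71 ± 0.0809, and all 3 lie in a stretch of chromosome 18 where most genes fell. Among the BMP genes, BMP7 was at 0.441, 0.389 and 0.418 CPM in BrM and 12.97, 12.2 and 12.4 CPM in Tr-BrM, BMP2 rose by 2.58 ± 0.117 from 4.23 to 25.4 CPM and BMP4 by 1.69 ± 0.0834 from 11.3 to 36.4 CPM, while the type 2 receptor BMPR2 fell by 1.67 ± 0.0677 from 78.8 to 24.8 CPM. The BMP target ID1 did not pass (-0.06 ± 0.06503, adjusted p = 0.445) and ID3 fell by 0.32 ± 0.0546. INHBA, the activin A subunit, rose by 1.18 ± 0.0421.

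Several feedback genes of Wnt signalling rose. AXIN2, the most widely used target of beta-catenin, was at 1.72, 1.604 and 1.997 CPM in BrM and 7.24, 8.903 and 8.897 CPM in Tr-BrM, and NKD1, a feedback antagonist, at 2.16, 1.75 and 1.63 CPM in BrM and 7.03, 5.45 and 7.57 CPM in Tr-BrM. NKD2 rose by 1.35 ± 0.112, the receptor ligase ZNRF3 by 0.72 ± 0.0787, the secreted inhibitor DKK1 by 0.82 ± 0.0446 from 82.5 to 146 CPM and the ligand WNT3A by 1.83 ± 0.219 from 1.53 to 5.48 CPM. All 3 libraries of each group were separate for AXIN2 and NKD1. The non-canonical ligand WNT5B fell by 1.67 ± 0.0955 and the receptor FZD5 by 1.53 ± 0.0918. Over the Wnt list the 2 directions were equal in number: 11 of 31 tested rose, 11 fell and 9 did not pass (median -0.02). In the Notch pathway the ligand JAG2 was at 39.6, 34.6 and 35.5 CPM in BrM and 115, 105 and 104 CPM in Tr-BrM, and the target NRARP rose by 1.49 ± 0.0984, HES2 by 1.82 ± 0.115 and NOTCH1 by 0.56 ± 0.0566. JAG1 fell by 0.21 ± 0.0491, and of the sugar transferases that tune Notch to its ligands MFNG fell by 3.15 ± 0.127 from 18.6 to 2.09 CPM and LFNG by 1.08 ± 0.0742. Of the Notch list, 10 of 22 tested rose, 6 fell and 6 did not pass (median 0.06).

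**Figure D2:**
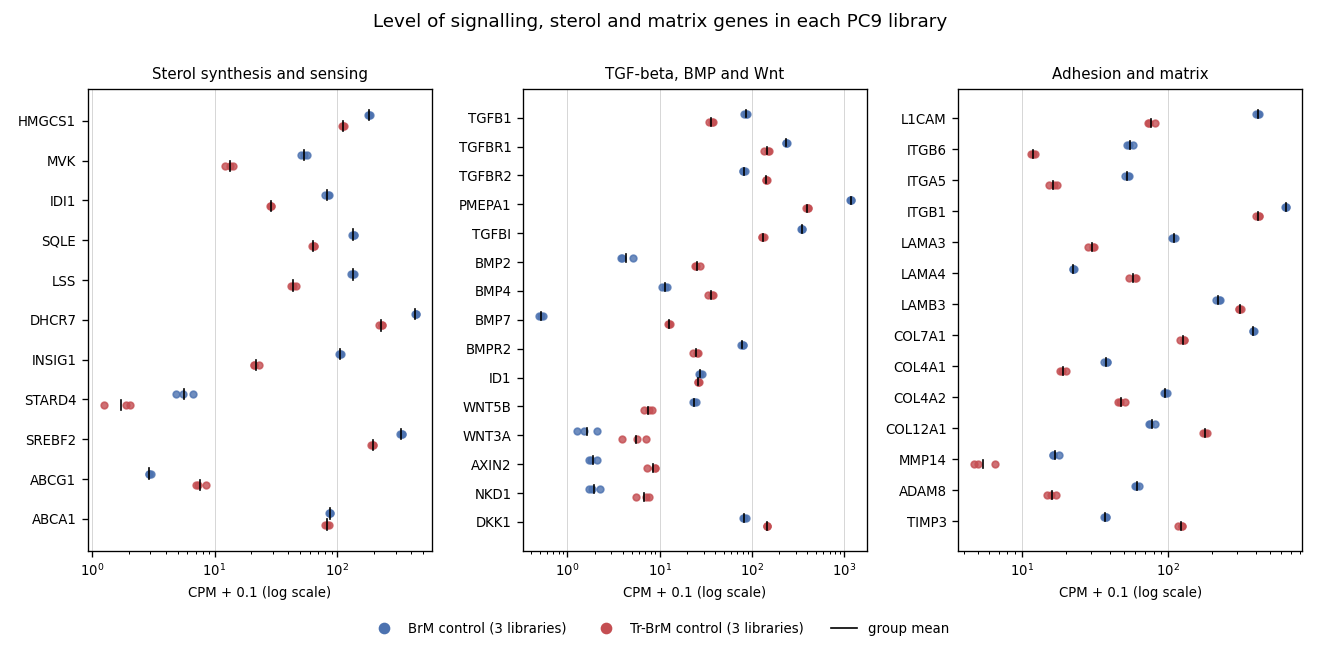
Each point is 1 PC9 library and each black tick a group mean; the x axis is CPM plus 0.1 on a log scale, in panels for sterol, signalling and matrix genes. In the left panel every gene fell except ABCA1, which did not pass, and ABCG1, which rose, and in the middle panel TGFB1 falls while BMP7 and AXIN2 rise.

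Inflammatory genes controlled by NF-kappaB, a factor held in the cytoplasm by IkappaB proteins until a receptor signals, rose more often than they fell. Of the NF-kappaB list, 17 of 31 tested rose, 9 fell and 5 did not pass (median 0.57). TNFAIP3 (A20), a feedback inhibitor of the pathway, was at 10.8, 12.2 and 12.03 CPM in BrM and 46.8, 49.2 and 46.1 CPM in Tr-BrM, and NFKBIZ, an atypical nuclear co-factor, at 5.05, 4.13 and 3.34 CPM in BrM and 10.8, 11.8 and 12.1 CPM in Tr-BrM. The chemokine CXCL8 was at 4.02, 3.21 and 3.11 CPM in BrM and 7.24, 9.68 and 10.4 CPM in Tr-BrM. In all 3 genes the groups did not overlap. IL18 rose by 1.17 ± 0.0612 from 33.2 to 74.9 CPM, the macrophage growth factor CSF1 by 1.07 ± 0.0848 from 11.8 to 24.7 CPM, SOD2 by 0.86 ± 0.0491 from 71.1 to 129 CPM and IL32 by 2.50 ± 0.302 from 0.528 to 3.003 CPM. Of the subunits, NFKB2 and RELB rose by 0.57 ± 0.0469 and 0.54 ± 0.1002, RELA and REL fell by 0.22 ± 0.0453 and 0.54 ± 0.106, and NFKB1 did not pass (-0.07 ± 0.06702, adjusted p = 0.386). The inhibitor NFKBIA fell by 0.24 ± 0.0640, and IL1B fell by 2.82 ± 0.525 from 1.11 to 0.152 CPM.

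The letters of a kappaB site, GGNNTTTCC on either strand, were searched in the 250 bases before the start of each gene in the RefSeq promoter table (GRCh38.p14). They were found in 18 of the 33 (54.5%) promoters of the list that the table holds, against 5.48% (1497 of 27305) of all promoters, and the list was drawn up from known targets of the factor. Of the 18 genes with the letters 7 rose, 2 fell, 4 did not pass and 5 were not tested, and of the 15 without them 5 rose, 5 fell, 1 did not pass and 4 were not tested. Stretches of promoter are shown with the letters in capitals for 5 genes that rose and, for contrast, for REL and NFKBIA, which hold the same letters and fell. Each is 100 bases, 5′ to 3′ on the gene's own strand.
TNFAIP3, chr6:137867144-137867243, forward strand: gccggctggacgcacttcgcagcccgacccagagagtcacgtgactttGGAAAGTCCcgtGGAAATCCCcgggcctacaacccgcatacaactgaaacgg
NFKBIZ, chr3:101827740-101827839, forward strand: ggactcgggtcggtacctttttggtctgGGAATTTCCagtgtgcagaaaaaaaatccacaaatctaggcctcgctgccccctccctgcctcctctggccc
CXCL8, chr4:73740418-73740517, forward strand: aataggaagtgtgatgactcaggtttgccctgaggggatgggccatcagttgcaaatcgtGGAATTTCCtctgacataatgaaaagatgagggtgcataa
IL32, chr16:3065275-3065374, forward strand: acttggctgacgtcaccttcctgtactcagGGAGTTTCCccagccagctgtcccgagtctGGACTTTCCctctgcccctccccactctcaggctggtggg
ICAM1, chr19:10270874-10270973, forward strand: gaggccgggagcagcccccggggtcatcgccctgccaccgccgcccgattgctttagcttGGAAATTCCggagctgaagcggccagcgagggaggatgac
NFKBIA, chr14:35404791-35404890, reverse strand: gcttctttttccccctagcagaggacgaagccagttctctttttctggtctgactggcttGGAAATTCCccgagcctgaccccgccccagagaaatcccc
REL, chr2:60881468-60881567, forward strand: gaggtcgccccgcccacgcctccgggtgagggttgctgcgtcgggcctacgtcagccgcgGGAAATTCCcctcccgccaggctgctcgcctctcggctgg
A match is a description of letters and not evidence of binding. TNFAIP3 and IL32 each hold 2 matches in the stretch shown.

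Interferon-response genes had no single direction. Of the list, 11 of 34 tested rose, 15 fell and 8 did not pass (median -0.08). The tetherin gene BST2 was at 26.2, 26.1 and 23.9 CPM in BrM and 3.39, 2.77 and 2.403 CPM in Tr-BrM, and fell by 3.15 ± 0.1102, and the signal transducer STAT2 fell by 1.38 ± 0.0782 from 32.3 to 12.4 CPM and IFIT1 by 2.16 ± 0.454. IFITM3, a membrane restriction factor, rose by 0.91 ± 0.0668 from 77.6 to 146 CPM and MX1 by 1.06 ± 0.181, and IFIT3 did not pass (-0.05 ± 0.240, adjusted p = 0.868). Of class I antigen presentation genes HLA-B rose by 1.06 ± 0.0571 from 32.1 to 66.7 CPM, TAP1 fell by 0.28 ± 0.0648, and reads can be shared between HLA genes. Of this list, 9 of 20 tested rose, 4 fell and 7 did not pass (median 0.01). Among surface ligands that restrain immune cells, CD47 rose by 0.84 ± 0.04703 from 88.8 to 159 CPM and PDCD1LG2 (PD-L2) by 1.39 ± 0.163, while CD274 (PD-L1) did not pass (0.06 ± 0.157, adjusted p = 0.744).

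Most genes of sterol synthesis and uptake fell. Cells sense membrane cholesterol through SCAP and INSIG proteins, which release the SREBP factors when sterol is low, and these factors switch on the enzymes of the mevalonate path. Of the synthesis enzymes, 2 of 22 tested rose, 17 fell and 3 did not pass (median -0.71). MVK, mevalonate kinase, was at 54.04, 56.3 and 50.8 CPM in BrM and 13.3, 12.2 and 14.2 CPM in Tr-BrM, LSS, which closes the sterol ring, at 129, 138 and 134 CPM in BrM and 46.04, 41.98 and 43.4 CPM in Tr-BrM, and IDI1 at 83.95, 78.96 and 86.5 CPM in BrM and 28.7, 28.2 and 28.7 CPM in Tr-BrM. These 3 fell by 2.03 ± 0.0777, 1.61 ± 0.0527 and 1.54 ± 0.0684 with no overlap. SQLE, which oxidises squalene, fell by 1.07 ± 0.0493. PMVK and TM7SF2 rose by 0.25 ± 0.0761 and 0.23 ± 0.0836. Both calls were lost without BrM library 3 (adjusted p = 0.0536 and 0.184), and that of TM7SF2 also without Tr-BrM library 1 (adjusted p = 0.0893). Of the genes of sensing, uptake and efflux, 2 of 21 tested rose, 13 fell and 6 did not pass (median -0.51). The count of risers was 1 without any one of the BrM libraries or without Tr-BrM library 3. INSIG1, which holds SREBP in the endoplasmic reticulum, was at 106, 104 and 108 CPM in BrM and 20.9, 22.96 and 20.96 CPM in Tr-BrM, with no overlap. The lysosomal exporters NPC1 and NPC2 fell by 1.11 ± 0.0559 and 1.15 ± 0.0404, and SREBF1 and SREBF2 by 0.88 ± 0.04302 and 0.78 ± 0.0384. The efflux pump ABCG1, a target of the oxysterol receptor LXR, rose by 1.39 ± 0.144 from 2.85 to 7.501 CPM, while ABCA1, another LXR target, did not pass (-0.07 ± 0.0462, adjusted p = 0.175). Of fatty acid genes SCD fell by 0.92 ± 0.0316 from 1769 to 938 CPM, FASN by 0.72 ± 0.0393 and LPIN1 fell by 1.59 ± 0.0501, and SCD5 and DGAT2 rose by 0.94 ± 0.0582 and 1.04 ± 0.0954. Over the fatty acid list, 7 of 29 tested rose, 18 fell and 4 did not pass (median -0.25).

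The letters TCACNCCAC, a sterol regulatory element, were in none of the 17 cholesterol synthesis promoters of the table and in 1 of 18 promoters of the sensing list, against 0.875% (239 of 27305) of all promoters. The 1 match was in SREBF2, which encodes the factor itself and fell, and it is shown with the letters in capitals.
SREBF2, chr22:41832912-41833011, forward strand: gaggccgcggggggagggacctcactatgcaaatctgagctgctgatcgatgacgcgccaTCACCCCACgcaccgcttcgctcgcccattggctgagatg
The absence of these letters in the other windows says only that this spelling was not found there.

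Energy and redox genes moved by branch. Of the hypoxia and glycolysis genes, 10 of 38 tested rose, 20 fell and 8 did not pass (median -0.29). The regulator PFKFB4 fell by 2.17 ± 0.119 from 15.8 to 3.52 CPM, the phosphofructokinase PFKP by 1.02 ± 0.0415 and the glucose importer SLC2A1 by 0.38 ± 0.0395, while the hexokinases HK1 and HK2 rose by 0.72 ± 0.0367 and 0.68 ± 0.0501 and ENO1 by 0.48 ± 0.0344. CA12, a carbonic anhydrase, rose by 3.64 ± 0.299 from 0.348 to 4.45 CPM. Among amino acid genes ASS1, which makes arginine's precursor, was at 49.9, 52.2 and 50.1 CPM in BrM and 314, 309 and 324 CPM in Tr-BrM, and the arginine importer SLC7A2 rose by 3.40 ± 0.163 from 1.44 to 15.4 CPM. BCAT1, the cytosolic branched-chain aminotransferase, was at 101, 102 and 107 CPM in BrM and 1.25, 0.681 and 1.02 CPM in Tr-BrM, and PHGDH, the entry to serine synthesis, fell by 1.09 ± 0.0403 from 358 to 168 CPM. ASS1 and BCAT1 were each apart in all libraries, in opposite directions, for BCAT1 by the rule that picked the largest falls. Of the amino acid transporters and enzymes, 10 of 28 tested rose, 12 fell and 6 did not pass (median -0.13).

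Detoxifying genes rose in part. Of NRF2 antioxidant genes, 17 of 30 tested rose, 11 fell and 2 did not pass (median 0.16). The aldo-keto reductases AKR1C1 and AKR1B10 rose by 1.96 ± 0.0348 from 180.4 to 703 CPM and by 1.33 ± 0.0326 from 446 to 1120.1 CPM, and GCLC, the catalytic subunit of glutathione synthesis, by 1.77 ± 0.0483 from 36.5 to 125 CPM. Their direction was not shared by HMOX1, haem oxygenase, which fell by 2.27 ± 0.108 from 22.5 to 4.65 CPM, or by GPX2, which fell by 1.45 ± 0.0493. AKR1C genes are close copies whose reads can be exchanged, and AKR1C2 and AKR1C3 were at 0.16 ± 0.0316 and -0.13 ± 0.0361. Of carboxylesterases and xenobiotic enzymes, 13 of 29 tested rose, 5 fell and 11 did not pass (median 0.40). CES2 did not pass beside CES1 (-0.02 ± 0.06402, adjusted p = 0.782), CYP4F11 rose by 0.97 ± 0.0473 from 65.98 to 129 CPM, and CYP1B1 and ALDH3A1 fell by 0.80 ± 0.0636 and 0.80 ± 0.0649. The lipid transporters ABCA12 and ABCA4 rose by 3.01 ± 0.106 from 3.07 to 24.8 CPM and by 3.03 ± 0.171.

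Proliferation genes rose by small amounts and in large numbers. Of G2/M and mitosis genes, 37 of 43 tested rose, 3 fell and 3 did not pass (median 0.42). Of DNA replication and G1/S genes, 39 of 51 tested rose, 4 fell and 8 did not pass (median 0.28). CDC45, which helps to activate the replicative helicase, was at 43.5, 45.1 and 43.1 CPM in BrM and 96.4, 96.03 and 91.1 CPM in Tr-BrM, with no overlap. ANLN, which builds the cleavage furrow, rose by 0.88 ± 0.0422 from 170.2 to 313 CPM. The proliferation marker MKI67 rose by 0.37 ± 0.0378 and cyclin B1, CCNB1, by 0.64 ± 0.0362. MCM5, one of the 6 helicase subunits, fell by 0.56 ± 0.0488 while MCM6 and MCM7 rose by 0.42 ± 0.0401 and 0.39 ± 0.0359, and MYBL2 fell by 0.34 ± 0.03596. E2F letters, TTTGGCGC or TTTCGCGC on either strand, were in 7 of the 43 (16.3%) replication promoters of the table and in 0.996% (272 of 27305) of all promoters. Of those 7 genes 5 rose, 1 fell and 1 did not pass, and of the 36 without the letters 28 rose, 2 fell and 6 did not pass. Stretches of 3 that rose are shown with the letters in capitals, and in MCM6 the 2 spellings overlap on opposite strands.
MCM6, chr2:135876490-135876589, reverse strand: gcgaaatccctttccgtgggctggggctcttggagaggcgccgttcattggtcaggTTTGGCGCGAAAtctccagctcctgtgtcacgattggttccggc
MCM7, chr7:100101398-100101497, reverse strand: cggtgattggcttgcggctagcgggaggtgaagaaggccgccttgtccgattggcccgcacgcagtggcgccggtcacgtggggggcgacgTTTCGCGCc
POLA1, chrX:24693721-24693820, forward strand: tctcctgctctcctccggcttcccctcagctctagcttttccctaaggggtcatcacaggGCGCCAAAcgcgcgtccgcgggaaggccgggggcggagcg

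More p53 targets fell than rose. Of the list, 5 of 25 tested rose, 13 fell and 7 did not pass (median -0.15). CDKN1A (p21), which halts the cell cycle downstream of p53, was at 82.7, 86.8 and 84.4 CPM in BrM and 22.4, 19.1 and 20.1 CPM in Tr-BrM, and fell by 2.04 ± 0.0639, and the libraries did not overlap. TP53INP1 fell by 1.92 ± 0.255, CCNG1 changed by -1.001 ± 0.0743 and MDM2, the ligase of p53, fell by 0.53 ± 0.0705, while the death receptor FAS rose by 1.62 ± 0.182 from 1.85 to 5.698 CPM. In the BCL2 family, whose members decide whether mitochondria release death signals, 2 of 17 tested rose, 11 fell and 4 did not pass (median -0.32). The killer BMF fell by 1.88 ± 0.115 from 15.1 to 4.098 CPM, PMAIP1 (NOXA) by 0.53 ± 0.0882 and the guardian MCL1 by 0.32 ± 0.0425. BCL2L11 (BIM) and BCL2L1 (BCL-XL) did not pass, at -0.02 ± 0.0692 and 0.05 ± 0.0398.

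Counted in CPM rather than in fold, which gives weight to long and abundant RNAs, other genes led. HSP90AA1, a cytosolic chaperone, gained the most CPM, from 4310.5 to 7737 CPM, and moesin, MSN, which ties membranes to actin, went from 1274 to 2605 CPM, the ferritin chain FTL from 1576 to 2692 CPM, the chaperone HSP90AB1 from 1965 to 3005 CPM, the glycolytic enzyme GAPDH from 7703 to 9110.2 CPM and the aldose reductase AKR1B1 from 1323 to 2545 CPM. FN1 lost the most CPM, and FLNA and MYH9, which cross-link and contract actin, went from 5824 to 3241 CPM and from 3556 to 1946 CPM. Of heat shock genes, 16 of 24 tested rose, 5 fell and 3 did not pass (median 0.22). The mitochondrial ribosomal RNA MT-RNR2 fell by 1.24 ± 0.0587 from 6619 to 2803 CPM and MT-RNR1 by 0.51 ± 0.0850, whereas the messenger MT-CO1 rose by 0.15 ± 0.0246, MT-CO2 by 0.26 ± 0.0287 and MT-ATP6 by 0.52 ± 0.0319, and MT-ND1 fell by 0.37 ± 0.0314.

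**Figure D3:**
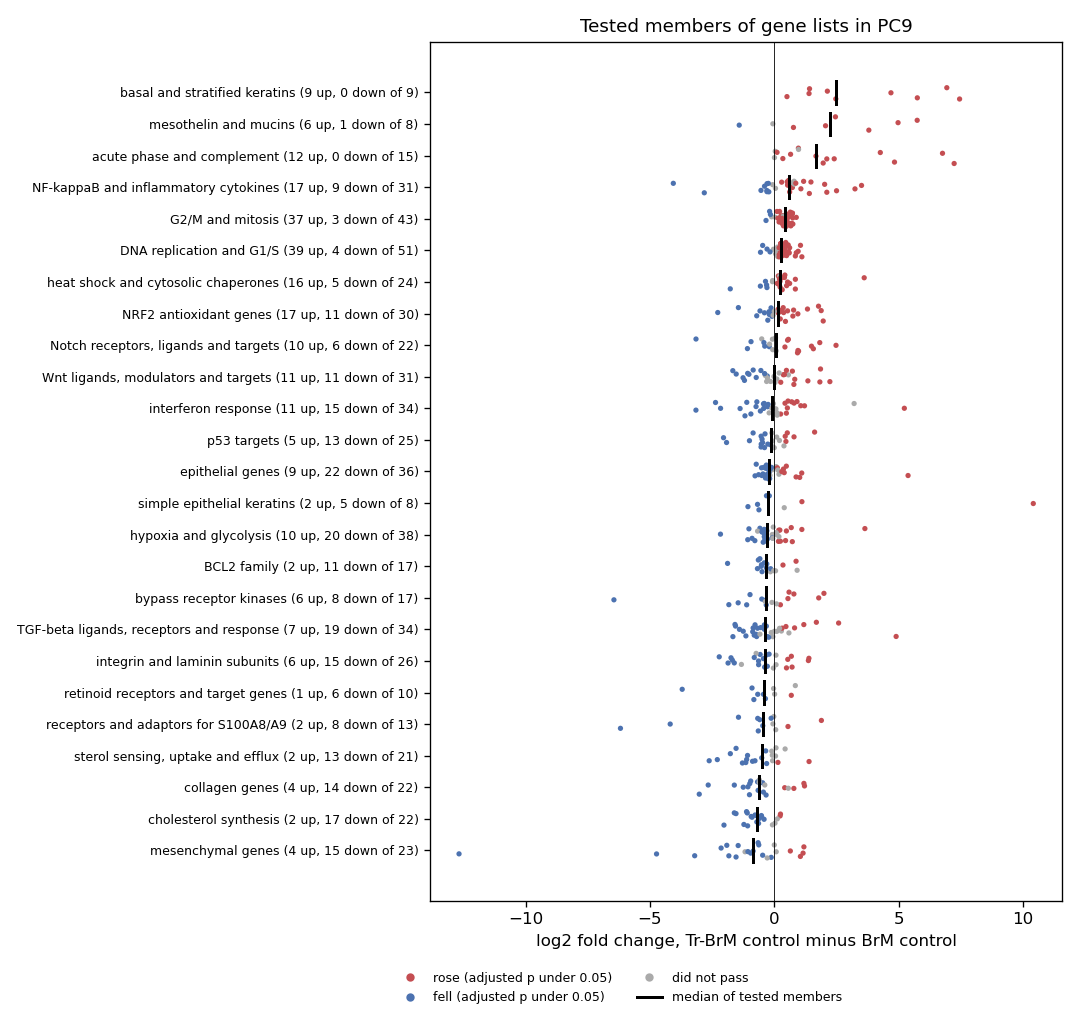
Each point is 1 tested gene of a list, placed by its log2 fold change in Tr-BrM minus BrM and coloured by whether it rose, fell or did not pass; black bars are list medians. Basal keratins, mucins and acute phase genes lie furthest to the right, with medians of 2.47, 2.25 and 1.67, and mesenchymal and cholesterol genes furthest to the left, at -0.85 and -0.71.

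Other lists had medians closer to 0. Of nuclear genes of oxidative phosphorylation, 27 of 74 tested rose, 19 fell and 28 did not pass (median 0.07). Of cytosolic ribosomal proteins, 41 of 76 tested rose, 15 fell and 20 did not pass (median 0.10). Of unfolded protein response genes, 9 of 30 tested rose, 10 fell and 11 did not pass (median -0.02). Of Hippo pathway genes and YAP targets, 10 of 26 tested rose, 13 fell and 3 did not pass (median -0.06). Of claudins and tight junction genes, 3 of 17 tested rose, 8 fell and 6 did not pass (median -0.18). Of angiogenic factors, 3 of 19 tested rose, 9 fell and 7 did not pass (median -0.23). Of ABC transporters, 8 of 24 tested rose, 7 fell and 9 did not pass (median 0.04).

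Part of the difference lay in long stretches of neighbouring genes. Tested genes of chromosomes 1 to 22 and X were cut into 309 windows of 50 neighbours (GENCODE 29, GRCh38), and the median log2 change of a window ran from -0.70 to 0.71. It was at or below -0.3 in 34 windows and at or above 0.3 in 14, limits that were set after the values were seen. Of the 34 low windows 18 lay among the 25 windows of chromosomes 12, 13 and 18. On chromosome 12, 55.3% of 833 tested genes fell and 12.97% rose, on chromosome 13, 63.0% of 270 fell and 6.67% rose, and on chromosome 18, 56.0% of 218 fell and 7.80% rose, against 30.3% and 29.6% over all genes. Where 2 or more low or high windows adjoined, they formed 8 low and 3 high stretches.

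The longest low stretch was chromosome 12 from 47079603 to 130162256, with 11 windows in a row between -0.70 and -0.37 and 68.4% of 550 genes lower. The 5 windows before it on chromosome 12 had medians from -0.27 to 0.26. The stretch on chromosome 13 ran from 19633681 to 52012125 and held 150 tested genes, of which 112 fell, with a median of -0.61. The low stretch of chromosome 18 ran from 12438890 to 76495190 and held 150 tested genes, of which 99 fell, with a median of -0.44. On chromosome 10, the stretch ran from 134465 to 37858106 and held 150 tested genes, of which 100 fell, with a median of -0.44. A low stretch of chromosome 2 ran from 190408355 to 219550595 and held 150 tested genes, of which 90 fell, with a median of -0.37. On chromosome 22, the low stretch ran from 30240447 to 38673854 and held 100 tested genes, of which 66 fell, with a median of -0.52. It was preceded on the same chromosome by a high one, 15784959 to 24178628, with a median of 0.41. The clearest high stretch, on chromosome 3, ran from 3126916 to 43999149 and held 200 tested genes, of which 143 rose, with a median of 0.61. The next window along chromosome 3 had a median of 0.07. A high stretch at the end of chromosome 14 ran from 90847862 to 104768494 and held 100 tested genes, of which 72 rose, with a median of 0.53. Together the low stretches held 9.28% of tested genes and 20.2% of all genes that fell, and the high ones 2.48% of tested genes and 5.64% of all that rose. The stretches were picked by their medians, so an excess of called genes in them, on chromosome 12 as elsewhere, follows in part from that choice. A cause of this pattern was not tested.

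**Figure D4:**
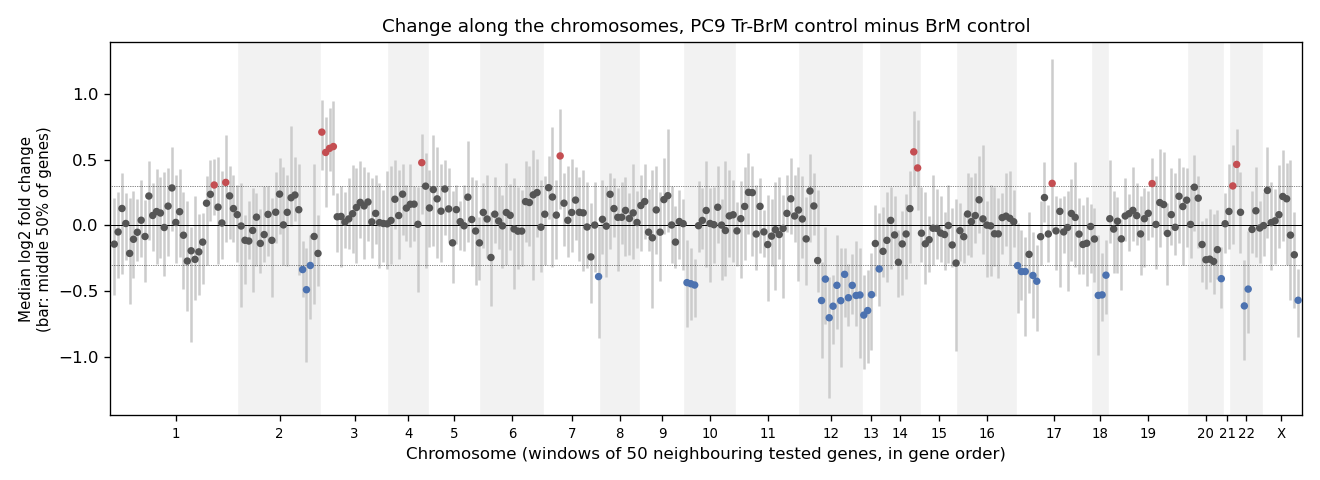
Each point is the median log2 fold change of 50 neighbouring tested genes and each grey bar the interquartile range of those genes, in gene order along chromosomes 1 to 22 and X; dotted lines mark 0.3 and -0.3. Blue points run together on chromosomes 12, 13 and 18 and red points at the start of chromosome 3, while the lone red point on chromosome 17 with a long bar holds the keratin genes.

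The same stretches had other medians in the third PC9 group and in the other line. In the S100A9-inh libraries against the same BrM controls, the median was -0.13 on the chromosome 12 stretch, -0.10 on chromosome 13 and 0.08 on chromosome 3, but -0.55 on chromosome 18, where Tr-BrM was at -0.44, and -0.40 at the start of chromosome 17, where Tr-BrM was at -0.33. Both comparisons share the BrM libraries, so the values are given side by side and not tested against each other. In H1650 the Tr-BrM minus BrM medians of the chromosome 12, 3, 13 and 18 stretches were -0.03, 0.03, 0.26 and 0.30. The chromosome 10 stretch was lower in H1650 too, at -0.64 over 132 genes, where PC9 was at -0.44, and the other 6 stretches were between -0.08 and 0.03.

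Several named genes lie in such stretches. FN1 is in the low stretch of chromosome 2, in a window with a median of -0.49. LCP1 is in the low stretch of chromosome 13, and CDH2, FHOD3, LAMA3, NPC1 and the SMAD genes are in that of chromosome 18. MVK, NUAK1, KRT7, KRT8, KRT18, ERBB3 and STAT2 are on the long arm of chromosome 12, and MCM5, MYH9 and HMOX1 on chromosome 22. L1CAM, FLNA and IRAK1 are at the end of the X chromosome, in a window with a median of -0.57. HSP90AA1 is in the high stretch of chromosome 14, and MYD88 and TGFBR2 are in that of chromosome 3. Each gene was set against the median of its 50 nearest tested neighbours, a step added after the pattern was seen. Over 16006 genes, taking off that median changed the variance of the log2 changes from 0.869 to 0.822. MVK was at -2.03 and its neighbours at -0.54, COL4A1, further along chromosome 13, at -0.99 and -0.33, SMAD4 at -0.74 and -0.44, MCM5 at -0.56 and -0.63, KRT8 at -0.32 and -0.42, and HSP90AA1 at 0.84 and 0.53. MYD88 was at 0.55 and its neighbours at 0.57, ERBB3 at -0.56 and -0.60, IRAK1 at -0.59 and -0.55, and RARG at -0.67 and -0.53. EGFR, on chromosome 7 and outside the stretches, was at 0.52 and its neighbours at 0.34. Some genes in low stretches rose: KRT5 and KRT4 on chromosome 12, with neighbours at -0.42 and -0.38, TIMP3 on chromosome 22, with neighbours at -0.58, and AKR1C1 on chromosome 10, with neighbours at -0.45. Relative to neighbours, the list median was -0.85 for cholesterol synthesis, -0.84 for mesenchymal genes, -0.64 for collagens, 2.87 for basal keratins and 0.36 for G2/M genes. For receptors and adaptors of S100A8 and S100A9 it moved from -0.47 to -0.14, and for simple keratins it changed sign, from -0.26 to 0.18.

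The same contrast was available in H1650, whose libraries are separate from those of PC9. The interaction test asked whether the Tr-BrM minus BrM change differed between lines, over the 14888 genes tested in both, of which 9775 passed (65.7%). Both sterol genes compared went opposite ways: INSIG1 was at -2.29 in PC9 and 1.18 ± 0.0594 in H1650 (difference -3.50 ± 0.0859) and HMGCS1, an early enzyme of the path, at -0.71 in PC9 and 0.80 ± 0.0364 in H1650 (difference -1.52 ± 0.05402). So did fibronectin, FN1, at -4.73 in PC9 and 1.84 ± 0.0289 in H1650 (difference -6.60 ± 0.0524), and lipocalin LCN2, at 2.11 in PC9 and -4.64 ± 0.135 in H1650 (difference 6.72 ± 0.1199). CDH2, with no count in PC9 Tr-BrM, rose in H1650 from 1.57 to 3.19 CPM. S100A9, S100A8, ALDH1A1 and SLC34A2 rose in both lines and by more in PC9 on the log2 scale. For S100A9 the changes were 2.61 in PC9 and 0.56 ± 0.0489 in H1650 (difference 2.03 ± 0.0701). S100A8 went from 0.211 to 32.2 CPM in PC9, starting near the floor, and from 24.6 to 112 CPM in H1650. SLC34A2 had no count in PC9 BrM and was at 0.0302 CPM in H1650 BrM, so its difference (6.36 ± 2.04) rests on fitted values. AXL fell in both lines and by more in H1650, at -1.83 in PC9 and -2.56 ± 0.0408 in H1650 (difference 0.71 ± 0.0912). KRT5 rose in PC9 and did not pass in H1650, at 7.44 in PC9 and -0.10 ± 0.231 in H1650 (difference 7.53 ± 0.511) (adjusted p = 0.725 in H1650), and EGFR rose in PC9 and fell in H1650, at 0.52 in PC9 and -0.37 ± 0.0316 in H1650 (difference 0.87 ± 0.0463). MCM5 and CDC20, a G2/M gene, were closest between lines, with differences of -0.18 ± 0.0644 and 0.18 ± 0.0591 that still passed.

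**Figure D5:**
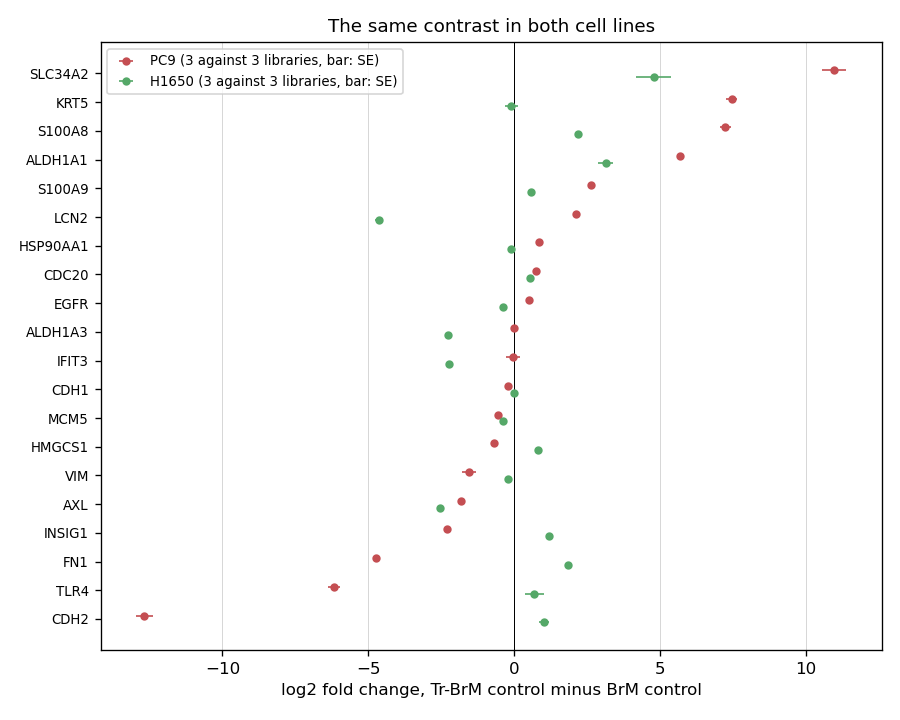
Points are the log2 fold change of Tr-BrM minus BrM in PC9 (red) and in H1650 (green) for 20 genes, with bars for the SE and 3 libraries against 3 in each line. INSIG1, HMGCS1, FN1, CDH2, LCN2, HSP90AA1 and EGFR passed in both lines on opposite sides of 0; the positions of CDH2 and SLC34A2 in PC9 rest on a group with no count and are fitted values.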

How the data were processed

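The deposited PC9 table holds raw counts per gene for 9 libraries, made by the authors from poly-A RNA; per the submitters' processing notes STAR, R 4.0.1 and DESeq2 1.28.1 were used on GRCh38. Which counting tool, annotation release and strand setting were used is not given in the sources used here. Columns were matched to samples by name. The 44 rows of the pseudoautosomal Y copies were left out, which leaves 60605 genes, and filterByExpr kept 16169. Depth was 19417186 to 21748732 counts in the 6 control libraries.

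The counts were fitted with edgeR 4.0.16 (R 4.3.3, limma 3.58.1) by its quasi-likelihood test on TMM-scaled libraries, all 9 PC9 libraries sharing 1 estimate of the spread, p-values adjusted by Benjamini-Hochberg over the whole table and called under 0.05. The difference between lines was the interaction term in 1 fit of 18 libraries. The fit was tested on simulated data with known changes. DESeq2 1.42.0 and the other alternatives are in the closing section. Levels are CPM computed from the deposited counts. Intervals at 95% and floors cover counting error only, and reads carry no molecular identifiers.

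Gene positions are from GENCODE 29, and promoters from RefSeq (GRCh38.p14), matched by symbol. With the strand setting unknown, overlapping or antisense genes may share reads that cannot be told apart: 344 tested genes (2.13%) share 50% or more of their exon length with another gene.

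The comparison, the 59 gene lists and the named genes were chosen with earlier results of these data known. The rule named S100A9, S100A8, ALDH1A1, ALDH1A3 and EGFR. It took the 15 largest rises and 15 largest falls from called genes at 10 CPM or more in one group, without overlap of libraries. The 10 largest gains and losses in CPM came from called genes, and genes at 5 CPM or more against 0 were added. From each list it named up to 8 members with the smallest p, together with members that define its role. Which of these are printed, and the limits of the stretches, were chosen after their values were seen.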

Additional observations from a re-analysis of the deposited data

Results flagged for a closer look

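The change from BrM to Tr-BrM differed between PC9 and H1650 in 20 of the genes set side by side, by the edgeR interaction test over the 14888 genes measured in both lines (adjusted p under 0.05, 3 libraries in each of the 4 groups). The values are PC9 minus H1650 on the log2 scale, and each gene is listed because its own difference passed; 9775 of the 14888 genes (65.7%) did so.

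Higher in PC9 than in H1650 were the log2 changes of S100A8 (5.03), S100A9 (2.03), ALDH1A1 (2.50), ALDH1A3 (2.26), KRT5 (7.53), LCN2 (6.72), IFIT3 (2.17), HSP90AA1 (0.92), EGFR (0.87), AXL (0.71) and CDC20 (0.18). For ALDH1A3 and IFIT3 the PC9 change did not pass, and the H1650 changes were -2.28 and -2.25.

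Lower in PC9 were those of FN1 (-6.60), TLR4 (-6.89), INSIG1 (-3.50), HMGCS1 (-1.52), VIM (-1.35), CDH1 (-0.24) and MCM5 (-0.18). TLR4 did not pass in H1650, where it was at 0.635 and 1.03 CPM, nor did CDH1, at 929 and 929.7 CPM.

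CDH2 (-13.89) and SLC34A2 (6.36) have a PC9 group with no count, so that these sizes are fitted values that depend on the prior count.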

How the results depend on the processing

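The counts of higher and lower genes stayed within 1.5 times of those given under every other scaling, filter, tool and choice of libraries tried, except under a threshold on size. A test against a fold change of 1.2 (glmTreat) gave 2835 genes higher and 3065 lower, against 4784 and 4900, because it asks for a larger change; with it 926 and 1061 genes changed by 1 or more, against 956 and 1097. Leaving out each of the 6 control libraries in turn gave 4490 to 4624 genes higher and 4561 to 4646 lower, and 967 to 1021 higher and 1073 to 1146 lower by 1 or more. DESeq2's Wald test gave 4558 higher and 4598 lower, and upper-quartile scaling, which moved the median of all genes by the most, to 0.031, gave 5106 and 4617. Without a filter on low counts 1171 genes were higher and 1318 lower by 1 or more.

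Of 278 tested genes that the text or its plots name, none changed direction after passing the test in any of the 15 settings, and apart from glmTreat 4 lost their call in some setting: CD59 also without the filter (adjusted p = 0.0567), PMVK, TM7SF2 and PDGFRB as given with their values. EPCAM, which did not pass, passed with upper-quartile scaling (adjusted p = 0.0349), with the 6 control libraries alone (0.0274) and without S100A9-inh replicate 1 (0.0261). glmTreat removed the call of 19 named genes. Of 1770 list counts 71 moved by over 1.5 times. glmTreat accounted for 41, all of them lower, in 23 of the 44 lists whose counts are given; for example, the cytosolic ribosomal proteins went from 41 higher and 15 lower to 10 and 7, the nuclear genes of oxidative phosphorylation from 27 and 19 to 7 and 7, the DNA replication genes from 39 higher to 21, the epithelial genes from 22 lower to 8 and the class I antigen presentation genes from 9 and 4 to 5 and 0. Under the other settings, 12 counts moved in 3 of those lists: the higher cholesterol synthesis genes (2 to 0 without BrM library 3 and 1 without Tr-BrM library 1), the higher sterol sensing genes (2 to 1 without the filter, without each BrM library and without Tr-BrM library 3) and the lower fibroblast and pericyte genes (2 to 1 with the 6 control libraries alone, without BrM library 1 or 3 and without Tr-BrM library 1 or 3). The number of differences between lines ran from 9437 to 10141, and the difference of CDC20 did not pass with library size as the scaling (0.12, adjusted p = 0.0523). No paired analysis was possible because the labels give the 2 groups no shared replicate numbers. Depth limits the genes with few counts, such as NKX2-1 or GFAP, where only a level near the floor can be stated.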
